A study of Arabidopsis thaliana with 4 samples.

Results

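The loci described here are genes and RNA loci of the pericentromeric parts of the 5 Arabidopsis thaliana chromosomes that carry no gene symbol in the tables and were not silent in the comparison of ldl1/2 with WT. A locus was taken if its name was a bare locus code, if its start lay at 11.5 to 17.7 Mb of chromosome 1, 1.1 to 7.2 Mb of chromosome 2, 10.3 to 17.3 Mb of chromosome 3, 1.5 to 6.3 Mb of chromosome 4 or 9 to 16 Mb of chromosome 5, and if the larger of the ldl1/2 and WT means was at least 0.1 RPKM. RPKM is a count of reads scaled to the length of the exons and to the size of the library. The rule found 1008 loci, which are 33.2% of the 3034 loci without a symbol in these windows, among 34262 loci in each table. On the chromosome arms 9613 loci without a symbol passed the same level, which is 58.3% of those there, and these serve as the comparison. The members were chosen by measured values, the larger mean in the ldl1/2 table, so the ldl1/2 contrast describes the loci and supports nothing, and the contrasts of hda6 and hda6/ldl1/2 share their WT mean with the rule.

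The RNA came from seedlings of the Col-0 ecotype, 14 days old and kept under long days at 22 °C, and the reads were paired, of 150 nt each. The groups were labelled hda6, a mutant of the histone deacetylase HDA6, ldl1/2, a double mutant of the histone demethylases LDL1 and LDL2, hda6/ldl1/2, which combines all 3 mutations, and WT. The sources used here do not name the alleles. Each of 3 tables compared 1 mutant with WT, and all 3 shared the same WT libraries.

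Pericentromeric chromatin in Arabidopsis is rich in transposons and their remains and is kept compact and mostly silent by DNA methylation and repressive histone marks, while scattered genes within it stay expressed. HDA6 removes acetyl groups from histones and is known for keeping transposons, repeats and some ribosomal RNA genes silent, in part together with DNA methylation. LDL1 and LDL2 are plant relatives of the animal demethylase LSD1 and remove methyl groups from histone lysines, and they are best known for their part in flowering time.

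The promoter windows of 5 members are shown first: 3 neighbours with large rises wherever HDA6 was mutated, and 2 RNAs that were called higher in every mutant and share a stretch of sequence around their starts. Each window runs from 250 bases before to 50 bases after the annotated start, 5′ to 3′ on the strand of the gene, and was read from the RefSeq copy of the TAIR10.1 genome. In the windows of 3 neighbouring members of chromosome 3, AT3G29633 (chr3:11453479-11453778, minus strand), AT3G29631 (chr3:11470772-11471071, minus strand) and AT3G29639 (chr3:11479984-11480283, minus strand), capitals mark the letters TATAAA on either strand. All 3 members were under 1 RPKM in WT and abundant in hda6. The windows of AT3G29631 and AT3G29639 were 95.7% identical over their whole length and had TATAAA at the same place, 41 bases before the start. The window of AT3G29633 was 54.2% and 54.9% identical to them.
AT3G29633: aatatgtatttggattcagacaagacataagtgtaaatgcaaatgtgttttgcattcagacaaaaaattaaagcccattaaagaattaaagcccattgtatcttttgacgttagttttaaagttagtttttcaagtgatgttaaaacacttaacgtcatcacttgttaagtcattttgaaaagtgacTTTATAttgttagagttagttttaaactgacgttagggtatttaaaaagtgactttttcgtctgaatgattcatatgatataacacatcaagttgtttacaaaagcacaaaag
AT3G29631: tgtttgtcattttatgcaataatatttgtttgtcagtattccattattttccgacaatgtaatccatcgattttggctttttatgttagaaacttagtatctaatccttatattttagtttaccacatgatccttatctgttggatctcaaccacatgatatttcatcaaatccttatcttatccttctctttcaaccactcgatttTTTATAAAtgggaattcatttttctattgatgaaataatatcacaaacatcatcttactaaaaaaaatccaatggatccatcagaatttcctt
AT3G29639: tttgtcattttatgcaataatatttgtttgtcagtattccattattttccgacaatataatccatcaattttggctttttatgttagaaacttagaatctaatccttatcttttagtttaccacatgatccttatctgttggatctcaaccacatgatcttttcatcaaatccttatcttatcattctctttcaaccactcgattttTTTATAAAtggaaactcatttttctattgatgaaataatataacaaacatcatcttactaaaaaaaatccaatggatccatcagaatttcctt

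The second set is of 2 noncoding RNAs on different chromosomes that were called higher in all 3 tables, AT4G04223 (chr4:2036261-2036560, plus strand) and AT5G38005 (chr5:15154817-15155116, plus strand). Capitals mark the stretch in which their windows matched each other, with 86.7% identity over 226 aligned positions. The same likeness went on into the first part of the transcripts, which were 92.7% identical over 274 aligned positions. These are the first 274 of the 545 exon bases of AT5G38005, and the rest of it showed no such match. The same bases were 92.3% identical to a stretch of AT3G56210, a gene of chromosome 3 described below. Weaker matches were found in other windows. The window of AT1G07717 matched those of AT4G04223 and AT5G38005 over 119 positions, at 75.6% and 78.2% identity. AT1G07717 stood at 0 RPKM in every group. The window of AT5G23410, a noncoding RNA of the arm of chromosome 5, matched that of AT4G04223 at 73.5% over 147 positions. AT5G23410 stood at 14.4 RPKM in hda6, 13.5 RPKM in ldl1/2 and 12.7 RPKM in hda6/ldl1/2, against 14.2 RPKM in WT, and was called in none of the authors' deposited tables. The pair AT4G04223 and AT5G38005 was chosen after the values and the sequences were seen.
AT4G04223: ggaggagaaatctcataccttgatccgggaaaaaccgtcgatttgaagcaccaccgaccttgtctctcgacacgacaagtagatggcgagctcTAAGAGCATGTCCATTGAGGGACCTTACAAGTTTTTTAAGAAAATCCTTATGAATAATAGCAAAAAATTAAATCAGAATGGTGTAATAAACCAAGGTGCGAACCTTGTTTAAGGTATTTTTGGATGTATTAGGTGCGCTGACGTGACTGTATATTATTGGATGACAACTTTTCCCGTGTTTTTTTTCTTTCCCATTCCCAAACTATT
AT5G38005: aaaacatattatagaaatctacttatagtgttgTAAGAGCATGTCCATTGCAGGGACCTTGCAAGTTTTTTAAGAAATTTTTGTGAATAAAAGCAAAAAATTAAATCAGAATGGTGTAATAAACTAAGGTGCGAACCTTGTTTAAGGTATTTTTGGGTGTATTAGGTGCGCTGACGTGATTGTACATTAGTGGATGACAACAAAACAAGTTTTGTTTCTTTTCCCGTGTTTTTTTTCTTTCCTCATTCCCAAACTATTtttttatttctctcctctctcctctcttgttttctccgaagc

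The tables hold the larger of 2 group means per comparison, from which the 4 group means were rebuilt. The smallest means fell on whole read pairs of 2 libraries in each mutant group and 3 in WT, with depths from 40.2 M to 51.6 M reads (M for 1e6). Over a group this came to 47.4 M read pairs in hda6, 41.4 M in ldl1/2, 46.6 M in hda6/ldl1/2 and 75.3 M in WT, so that 0.1 RPKM on 1 kb of exon stands for 4.74, 4.14, 4.66 and 7.53 read pairs in that order. The reads of each library could be worked out for most members, which gives the library values printed below. GEO lists 1 sample for each genotype and nothing says whether the libraries came from separate plants, so p-values may measure a technical spread. Between libraries of a group, members with at least 200 reads differed by a median of 0.10 (log2) in hda6, 0.14 in ldl1/2 and 0.12 in hda6/ldl1/2, against 0.24 between the highest and the lowest of the 3 WT libraries. The deepest WT library was the lowest of the 3 in 144 of 284 such members. In the library means, RNA of LDL1 was 2.87 RPKM in ldl1/2 and 4.60 RPKM in hda6/ldl1/2, against 4.86 RPKM in WT. RNA of LDL2 was 0.647 RPKM in ldl1/2 and 1.04 RPKM in hda6/ldl1/2, against 1.43 RPKM in WT. Both genes fell in ldl1/2 and neither passed the test in hda6/ldl1/2 in the authors' deposited tables, so transcript levels do not check that label, and hda6/ldl1/2 below means the libraries labelled so. HDA6 RNA was 24.5 RPKM in hda6 and 24.3 RPKM in hda6/ldl1/2, against 17.7 RPKM in WT, so HDA6 RNA was higher in both, and a mutation that keeps the RNA is not checked by its level. CASP1, a marker of the root endodermis, was at 20.6 RPKM in hda6, 18.3 RPKM in ldl1/2 and 8.2 RPKM in hda6/ldl1/2, against 20.4 RPKM in WT, and fell in hda6/ldl1/2 by 1.18 on the log2 scale in the authors' deposited table. Its part in the calls of hda6/ldl1/2 was not tested, and in whole seedlings fewer cells of a type and less RNA per cell cannot be told apart.

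The 1008 members were spread over all 5 windows, with 184 on chromosome 1, 209 on chromosome 2, 206 on chromosome 3, 132 on chromosome 4 and 277 on chromosome 5. By the RefSeq annotation 963 were protein-coding genes, 26 were long noncoding RNAs and 19 were other noncoding RNAs. Protein-coding loci were kept more often, 963 of 2228, than long noncoding RNAs, 26 of 618. A median member had 5 exons and 1482 bases of exon, and a median arm locus had 5 exons and 1598 bases. The larger mean of ldl1/2 and WT ran from 0.1 to 6042 RPKM, with a median of 4.65 RPKM against 6.56 RPKM on the arms. It was under 0.5 RPKM in 175 members, 0.5 to 1 RPKM in 82, 1 to 10 RPKM in 419 and at least 10 RPKM in 332. In 48 members only the ldl1/2 mean reached the level, and in 22 only the WT mean did.

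The members nearest the level were AT3G46614, AT4G04680 and AT2G07815, at 0.1 to 0.103 RPKM. Just under it lay AT2G10450 at 0.0999 RPKM, AT3G46400 at 0.0995 RPKM and AT2G11035 at 0.0987 RPKM. Of the 2026 pericentromeric loci left out, 1550 had no reads in any table. The other 476 had reads, and 66 of them were called higher in hda6 and 89 in hda6/ldl1/2 in the authors' deposited tables. The rule therefore leaves out loci that were under the level in both ldl1/2 and WT and were called higher with the hda6 mutation.

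The level of the members as a whole barely differed between genotypes. The median log2 fold change was 0.01 in hda6, 0.04 in ldl1/2 and 0.05 in hda6/ldl1/2, against -0.01, 0.00 and 0.01 on the arms. Single members did differ. With a deposited FDR under 0.05, the authors' deposited table for hda6 has 52 members that rose and 50 that fell. That is 5.16% and 4.96% of the members, beside 3.61% and 2.92% of the arm loci and 4.05% and 3.58% of all 24905 loci with a fold change. In hda6/ldl1/2, the counts in the authors' deposited table were 117 that rose and 67 that fell, or 11.6% and 6.65%, beside 8.27% and 5.5% on the arms and 8.61% and 6.4% over all loci. In ldl1/2, the contrast of the rule, 41 members were called higher and 23 lower in the authors' deposited table, or 4.07% and 2.28%, beside 3.98% and 2.75% on the arms and 3.75% and 3.2% over all loci. Here and below, the set of all loci has no level cut, unlike the members and the arm loci. Under the same cut as the members there were 22005 nuclear loci, named ones and members included. Of these 3.87% rose and 4.05% fell in hda6, 4.21% and 3.62% in ldl1/2, and 8.63% and 7.25% in hda6/ldl1/2. The members' share that fell in hda6/ldl1/2 was thus below that of this set. No test of members against arm loci was run, and the shares are given as a description.

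**Figure D1:**
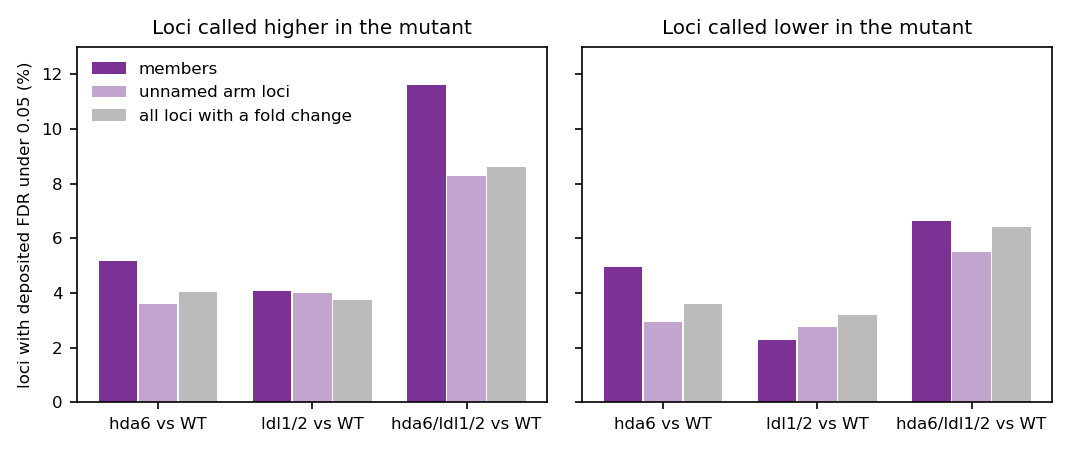
Share of loci with a deposited FDR under 0.05 (percent, vertical axis) in each comparison, higher in the mutant on the left and lower on the right, for the 1008 members, the 9613 unnamed arm loci under the same level cut and all 24905 loci with a fold change. In hda6/ldl1/2 11.6% of the members are called higher, beside 8.27% of the arm loci, while in ldl1/2 the shares are 4.07% and 3.98%.

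By size alone, a deposited log2 fold change of at least 1 was reached by 59 members in hda6, 85 in ldl1/2 and 101 in hda6/ldl1/2. The background for these counts was 4.22%, 4.95% and 6.24% of arm loci and 7.38%, 6.39% and 9.85% of all loci. A log2 fold change of -1 or below was found for 76 members in hda6, 35 in ldl1/2 and 74 in hda6/ldl1/2, beside 3.54%, 2.47% and 4.2% of arm loci and 5.89%, 5.3% and 6.25% of all loci. Many of these members had few reads: of the 175 members under 0.5 RPKM, 33 passed the upper limit and 36 the lower one in hda6, while 13 and 0 were called.

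The split by level shows where calls sat. Among members of 0.1 to 0.5 RPKM, 7.43% rose in hda6, beside 7.38% of arm loci at that level. Among members of 1 to 10 RPKM, 5.49% rose and 4.53% fell in hda6, beside 3.6% and 2.69% of arm loci. At 10 RPKM or more, 2.71% rose and 8.13% fell in hda6, beside 2.00% and 3.95% of arm loci. In hda6/ldl1/2 the members of 0.1 to 0.5 RPKM had 16% higher and 2.86% lower, beside 11.9% and 1.05% on the arms. Strong members of hda6/ldl1/2, at 10 RPKM or more, had 10.8% higher and 7.23% lower, beside 8.58% and 6.58% on the arms. In hda6 and hda6/ldl1/2 weakly expressed members were called higher far more often than lower. Strongly expressed members in hda6 showed the reverse, on the arms as in the windows. The level is the larger of the ldl1/2 and WT means, and WT enters every fold. A weak member therefore has few WT reads from which a fall could be called, so the split cannot tell level apart from this limit.

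The calls were also counted by position within a window. Within 1 Mb of the middle of a window there were 126 members, of which 9 rose and 6 fell in hda6. Between 1 and 2 Mb 15 of 213 rose and 7 fell, between 2 and 3 Mb 24 of 486 rose and 24 fell, and from 3 to 3.5 Mb 4 of 183 rose and 13 fell. The share that rose in hda6 was 7.14%, 7.04%, 4.94% and 2.19% from the middle outward, and the share that fell was 4.76%, 3.29%, 4.94% and 7.10%. In hda6/ldl1/2 the shares that rose were 11.9%, 16.4%, 10.7% and 8.20% in the same bins, and those that fell were 4.76%, 5.16%, 6.58% and 9.84%. In ldl1/2 the shares called higher were 3.17%, 5.16%, 3.91% and 3.83%, and those called lower were 1.59%, 3.29%, 2.06% and 2.19%. The inner bin of 126 members holds the 49 members of the mitochondrial DNA insertion of chromosome 2, described below. Of these 49, 0 rose and 4 fell in hda6, and 0 were called in ldl1/2 or hda6/ldl1/2. The shares of the inner bin therefore depend on them, and shares without them were not worked out. With them included, most of these series do not run one way, and no test was run. The outer bin holds no member of chromosome 4, whose window is shorter. The windows of chromosomes 1 and 2 reach only just past 3 Mb from their middle. Most of the span of the outer bin therefore lies on chromosomes 3 and 5. Level, chromosome and position were not separated here.

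**Figure D2:**
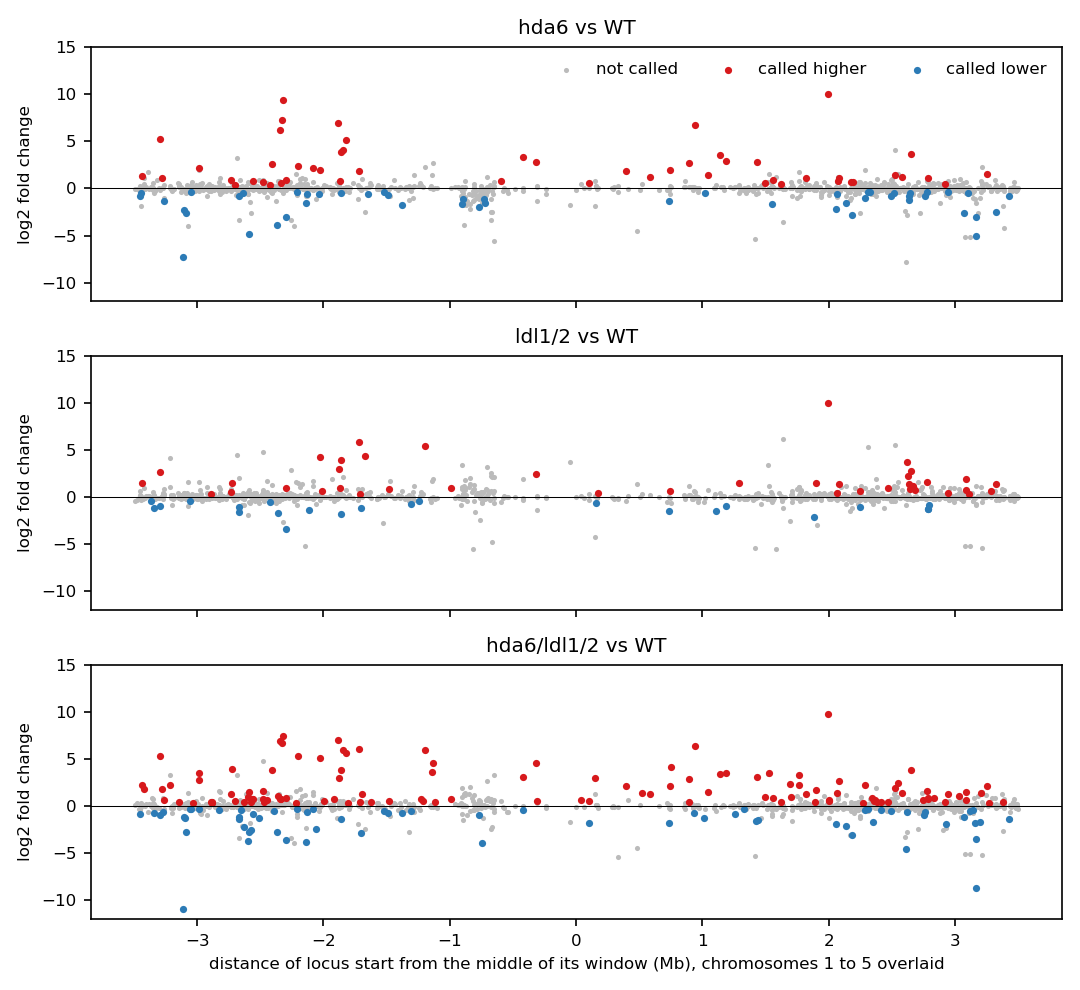
Deposited log2 fold change of each member (vertical axis) against the distance of its start from the middle of its window in Mb (horizontal axis, 5 chromosomes overlaid, minus for the side of lower coordinates), for hda6, ldl1/2 and hda6/ldl1/2 against WT from top to bottom, with loci of deposited FDR under 0.05 in red (higher) and blue (lower). Members thin out towards the middle, where 126 of 1008 lie within 1 Mb, and the cluster of points just left of the middle, shifted down in hda6, is the mitochondrial DNA insertion of chromosome 2.

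Members lie close to dead genes. Of 4843 loci that RefSeq annotates as pseudogenes on the nuclear chromosomes, mostly old transposon genes, 78.0% lie in the 5 windows. A pseudogene was within 2 kb of 29.3% of the members and of 6.08% of the arm loci, and the median distance was 4582.5 bases for members and 38868 bases for arm loci. Among the members that rose the share was 36.5% in hda6 and 31.6% in hda6/ldl1/2, and among those that fell it was 26% and 23.9%. Of the members themselves, 1 had a transposon word in its description, AT4G05095, annotated as a reverse transcriptase of a non-LTR retroelement. Its level was 0.253 RPKM in hda6, 0.228 RPKM in ldl1/2 and 0.0536 RPKM in hda6/ldl1/2, against 0.0948 RPKM in WT, and no table called it.

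Several of the members with large rises had low levels in ldl1/2 and WT and were higher in both mutants with hda6. AT3G29639 (chr3:11478633-11480033), an uncharacterized protein gene, had 106 and 121 RPKM in the hda6 libraries and 28.4 and 25.4 RPKM in the hda6/ldl1/2 libraries, with 0.158 and 0.224 RPKM in the ldl1/2 libraries, against a WT mean of 0.168 RPKM. Its log2 fold change in the authors' deposited tables was 9.43 in hda6, 0.15 in ldl1/2 and 7.43 in hda6/ldl1/2. The first and the last of these were listed with an FDR of 0. Next to it, AT3G29631 (chr3:11470374-11470821), annotated as a nuclease, had 71.3 and 109 RPKM in hda6 and 67.1 and 46.6 RPKM in hda6/ldl1/2, against 0.551, 0.576 and 0.692 RPKM in WT. The groups did not overlap, and the rise was 7.26 in hda6 and 6.67 in hda6/ldl1/2 on the log2 scale in the authors' deposited tables. AT3G29633 (chr3:11452509-11453528), an uncharacterized gene, had 25.8 and 22.0 RPKM in hda6 and 34.6 and 34.2 RPKM in hda6/ldl1/2, against 0.323, 0.233 and 0.418 RPKM in WT. These 3 members are neighbours, with no other locus at or above the level between them; they were called higher together in both tables.

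AT2G05914 (chr2:2263124-2264543), a long noncoding RNA, averaged 67.5 RPKM in hda6, 0.56 RPKM in ldl1/2 and 70.1 RPKM in hda6/ldl1/2, against 0.585 RPKM in WT. It rose by 6.91 in hda6 and 7.04 in hda6/ldl1/2 on the log2 scale in the authors' deposited tables. AT4G07995 (chr4:4842688-4843814), uncharacterized, had 26.8 and 29.1 RPKM in hda6 and 23.2 and 18.5 RPKM in hda6/ldl1/2, against a WT mean of 0.278 RPKM. The ldl1/2 libraries of AT4G07995 had 0.492 and 0.348 RPKM, with an FDR of 0.708 in the authors' deposited table. AT2G05995, a noncoding RNA, had 2.05 and 2.40 RPKM in hda6 and 3.74 and 2.12 RPKM in hda6/ldl1/2, against 0.0618 RPKM in WT, which is about 3.06 read pairs. Its ratio to WT lay between 12.6 and 178 in hda6 and between 16.6 and 235 in hda6/ldl1/2, from the exact Poisson 95% interval of the WT count, which covers counting error only. In all of these members both means with the hda6 mutation stood far above the ldl1/2 and WT means.

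**Figure D3:**
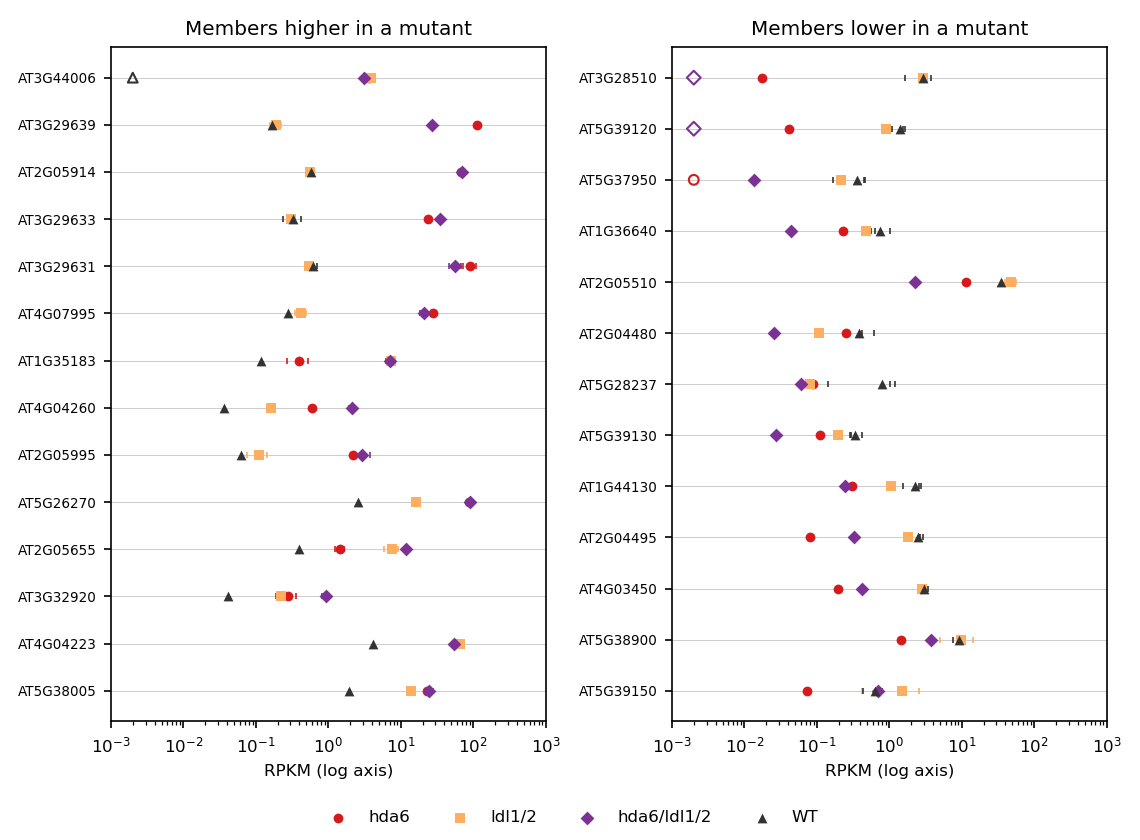
Group means (large symbols) and libraries where they could be worked out (ticks) in RPKM on a log axis, for members named by the largest calls, with members higher in a mutant on the left and members lower in a mutant on the right. Open symbols at the left edge are groups with no reads. AT3G29639 stands at 113 RPKM in hda6 and 0.168 RPKM in WT, and AT3G28510 at 0.0176 RPKM in hda6 and 2.95 RPKM in WT.

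A second pattern was a rise in all 3 mutants. By the rule for named members, 8 loci were called in the same direction in every table with the largest smallest change; 7 were higher and AT5G28237 was lower. The comparisons share the WT libraries, so a low or high WT mean enters all 3 at once. AT3G44006 (chr3:15796133-15796837), uncharacterized, had 3.93 and 3.40 RPKM in hda6, 3.95 and 3.73 RPKM in ldl1/2 and 3.08 and 3.16 RPKM in hda6/ldl1/2, and no reads in WT. Against a floor of 3 read pairs over the WT libraries this is at least 64.9-fold higher in hda6, at least 68.0-fold higher in ldl1/2 and at least 55.2-fold higher in hda6/ldl1/2. The deposited FDR was 0.000528, 0.000606 and 0.000429 in that order in the authors' deposited tables. AT3G44006 was not detected in WT at this depth. It is 1 of the 48 members that passed the level through ldl1/2 alone, as are AT2G05995, AT4G04260, AT2G05350, AT3G32920 and AT2G07140, so these had to stand higher in ldl1/2 than in WT, and their ldl1/2 values are a description.

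AT5G26270 (chr5:9206375-9208136), uncharacterized, had 89.9 and 87.7 RPKM in hda6, 16.1 and 16.6 RPKM in ldl1/2 and 87.5 and 95.5 RPKM in hda6/ldl1/2, against a WT mean of 2.53 RPKM. Its log2 fold changes in the authors' deposited tables were 5.19, 2.66 and 5.31, so that the mutants with hda6 stood well above ldl1/2. AT1G35183 (chr1:12882654-12884762), a RING finger protein of the zinc finger class, which is a fold of many ubiquitin ligases, ran the other way. It had 0.265 and 0.529 RPKM in hda6, 7.38 and 7.07 RPKM in ldl1/2 and 7.85 and 6.33 RPKM in hda6/ldl1/2, against 0.118 RPKM in WT. Its log2 fold changes in the authors' deposited tables were 1.81, 5.89 and 6.03, with an FDR of 0.0492 in hda6. AT2G05655 (chr2:2119187-2121254), uncharacterized, had 1.64 and 1.23 RPKM in hda6, 5.80 and 9.23 RPKM in ldl1/2 and 12.4 and 11.2 RPKM in hda6/ldl1/2, against 0.391 RPKM in WT. Both loci were nearest to WT in hda6.

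The pair of noncoding RNAs shown above behaved alike. AT4G04223 (chr4:2036511-2037816), in the heterochromatic knob of chromosome 4, had 58.0 and 53.2 RPKM in hda6, 59.6 and 70.5 RPKM in ldl1/2 and 55.8 and 51.9 RPKM in hda6/ldl1/2, against a WT mean of 4.08 RPKM. AT5G38005 (chr5:15155067-15156088) had 22.8 and 23.8 RPKM in hda6, 13.3 and 14.3 RPKM in ldl1/2 and 27.9 and 21.4 RPKM in hda6/ldl1/2, against a WT mean of 1.95 RPKM. The log2 fold changes were 3.82, 3.96 and 3.85 for AT4G04223 and 3.63, 2.78 and 3.80 for AT5G38005 in the authors' deposited tables, all with an FDR listed as 0. For AT4G04223 the value is uncertain, because 94.7% of its exon bases have a near-identical copy inside AT3G56210 (chr3:20852380-20855610), an ARM repeat protein gene, and how the counting shared such reads is not given. AT3G56210 stood at 17.4 RPKM in hda6, 22.2 RPKM in ldl1/2 and 19.1 RPKM in hda6/ldl1/2, against 13.2 RPKM in WT, and rose in all 3, by 0.45, 0.72 and 0.66 on the log2 scale in that order, in the authors' deposited tables.

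AT4G04223 has called neighbours. AT4G04221 (chr4:2033168-2036495), a long noncoding RNA on the other strand, had 2.45 and 1.95 RPKM in hda6, 2.49 and 2.80 RPKM in ldl1/2 and 1.47 and 2.16 RPKM in hda6/ldl1/2, against a WT mean of 1.36 RPKM. It rose in hda6 by 0.75 on the log2 scale and had an FDR of 0.061 in hda6/ldl1/2 in the authors' deposited tables. It overlaps the receptor gene AtRLP46 by 2779 bases on the opposite strand, and without stated strand use their reads cannot be told apart. AT4G04260 (chr4:2054037-2055849), with a BAH domain, a fold found in chromatin proteins, had 0.622 and 0.577 RPKM in hda6, 0.177 and 0.143 RPKM in ldl1/2 and 1.95 and 2.26 RPKM in hda6/ldl1/2, against 0.0360 RPKM in WT. The WT level is about 2.67 read pairs, and the ratio to WT lay between 5.07 and 71.9 in hda6 and between 17.8 and 252 in hda6/ldl1/2 by the exact Poisson 95% interval. The hda6/ldl1/2 libraries of AT4G04260 were above both hda6 libraries. Over the 15 members of the knob, 4 were higher and 2 lower in hda6, 4 higher and 0 lower in ldl1/2, and 3 higher and 1 lower in hda6/ldl1/2 in the authors' deposited tables. The shares of all loci called higher were 4.05%, 3.75% and 8.61% in that order, those called lower were 3.58%, 3.2% and 6.4%, and the 15 include AT4G04223 and AT4G04221, whose reads are uncertain.

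Other members stood higher in hda6/ldl1/2 than in either of the other mutants. The hda6/ldl1/2 minus hda6 and minus ldl1/2 differences were not tested in the tables, and the values are given side by side. AT2G04190, a protein with a TRAF-like domain, had 1.90 and 1.93 RPKM in hda6/ldl1/2, 0.313 and 0.0999 RPKM in hda6 and 0.413 and 0.418 RPKM in ldl1/2, against 0.143 RPKM in WT. Its log2 fold changes in the authors' deposited tables were 3.87 in hda6/ldl1/2, 0.59 in hda6 and 1.51 in ldl1/2. AT2G05350, uncharacterized, had 1.02 and 1.61 RPKM in hda6/ldl1/2, 0.243 and 0.127 RPKM in hda6 and 0.136 and 0.0770 RPKM in ldl1/2, against 0.0375 RPKM in WT. AT3G32920, a P-loop protein of the nucleotide-binding kind, had 0.817 and 1.02 RPKM in hda6/ldl1/2, 0.362 and 0.191 RPKM in hda6 and 0.226 and 0.225 RPKM in ldl1/2, against 0.0413 RPKM in WT. In these 3 members the lower hda6/ldl1/2 library was above the higher library of hda6 and of ldl1/2. The 3 were chosen by the same values, so this is a description. AT2G10920, AT2G12205 and AT5G36100 had log2 fold changes of 3.02, 4.14 and 2.32 in hda6/ldl1/2 in the authors' deposited table. In hda6 they had -1.84, 0.13 and 0.07, and in ldl1/2 -4.23, -0.66 and -2.50, and none was called in these 2 tables. Their WT means were 0.108, 0.160 and 0.107 RPKM, on 252, 129 and 1370 bases of exon. AT2G10920 and AT2G12205 are short, so their WT means stand for very few reads and their folds are uncertain. AT2G10920 had no reads in ldl1/2, so its -4.23 is not a measured size. It also overlaps AT2G10921 by 203 bases on the opposite strand. The fold of AT2G12205 moved by more than 1.5 times without either hda6/ldl1/2 library.

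AT2G07140, an F-box gene, had 0.351 and 0.232 RPKM in ldl1/2 and 0.499 and 0.228 RPKM in hda6/ldl1/2, against 0.00621 RPKM in WT, which is under 1 read pair. Its hda6 libraries had 0.0596 and 0 RPKM. It rose in hda6/ldl1/2 with an FDR of 0.00072 in the authors' deposited table. The ratio of its hda6/ldl1/2 mean to WT lay between 6.97 and 1534 by the exact Poisson 95% interval of the WT read pairs, which covers the counting error of WT only. Of its exon bases, 84.6% have a near-identical copy on chromosome 3. Leaving out the higher hda6/ldl1/2 library of AT2G07140 lowers its mean by more than 1.5 times.

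Among the members that fell, AT3G28510 (chr3:10685470-10687429), a P-loop protein of the nucleotide-binding kind, averaged 0.0176 RPKM in hda6 and 2.92 RPKM in ldl1/2 and had no reads in hda6/ldl1/2, against 3.81, 3.36 and 1.67 RPKM in WT. The hda6 mean is about 1.64 read pairs, and the ratio of WT to hda6 lay between 37.9 and 1131 by the exact Poisson 95% interval. Against a floor of 3 read pairs over the group, AT3G28510 was at least 89.7-fold lower in hda6/ldl1/2. The FDR was listed as 0 in hda6 and as 0.00333 in hda6/ldl1/2 in the authors' deposited tables. Its neighbours AT3G28540, of the same family, and AT3G28550, an extensin-like cell wall protein, fell in hda6/ldl1/2 by 1.14 and 1.31 on the log2 scale in the authors' deposited table. AT3G28540 was at 2.17 RPKM in hda6, 15.6 RPKM in ldl1/2 and 4.71 RPKM in hda6/ldl1/2, against 11.4 RPKM in WT. AT3G28550 was at 17 RPKM in hda6, 19.0 RPKM in ldl1/2 and 6.70 RPKM in hda6/ldl1/2, against 18.2 RPKM in WT.

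A run of 3 cupin genes on chromosome 5 fell in hda6/ldl1/2; cupins are a fold of germin-like proteins, many of which sit in the cell wall. AT5G39120 (chr5:15662582-15663527) averaged 0.0412 RPKM in hda6 and had no reads in hda6/ldl1/2, against 1.66, 1.08 and 1.54 RPKM in WT, and was at least 18.4-fold lower in hda6/ldl1/2. AT5G39110 was at 0.490 RPKM in hda6 and 0.298 RPKM in hda6/ldl1/2, against 0.876, 1.74 and 0.848 RPKM in WT. AT5G39130 was at 0.111 RPKM in hda6 and 0.0275 RPKM in hda6/ldl1/2, against 0.286, 0.298 and 0.426 RPKM in WT. In hda6 itself AT5G39120 fell, while AT5G39110 and AT5G39130 had an FDR of 0.289 and 0.461 in the authors' deposited table. A cupin gene beside them, AT5G39150, averaged 0.0739 RPKM in hda6 and 0.708 RPKM in hda6/ldl1/2, against 0.785, 0.690 and 0.435 RPKM in WT, and fell in hda6 with an FDR of 0.00528 in the authors' deposited table. All of the exon bases of AT5G39150 have a near-identical copy on chromosome 5, so its reads are uncertain.

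Several single genes fell in both mutants with hda6 and were not called in ldl1/2, a difference between mutants that was not tested. AT2G04495, uncharacterized, averaged 0.0802 RPKM in hda6 and 0.330 RPKM in hda6/ldl1/2, against 2.91, 2.68 and 1.83 RPKM in WT, and fell by 4.89 and 2.77 on the log2 scale in the authors' deposited tables. AT4G03450, an ankyrin repeat protein, averaged 0.197 RPKM in hda6 and 0.419 RPKM in hda6/ldl1/2, against 3.10, 3.37 and 2.60 RPKM in WT. AT1G44130, an aspartyl protease, averaged 0.302 RPKM in hda6 and 0.241 RPKM in hda6/ldl1/2, against 2.56, 2.76 and 1.54 RPKM in WT. AT5G38900, of the thioredoxin superfamily, averaged 1.44 RPKM in hda6 and 3.77 RPKM in hda6/ldl1/2, while its ldl1/2 libraries lay apart at 5.04 and 14.2 RPKM, against 9.48, 10.3 and 7.46 RPKM in WT. The ldl1/2 log2 fold changes of AT2G04495, AT4G03450, AT1G44130 and AT5G38900 were -0.50, -0.14, -1.14 and 0.06 in the authors' deposited table, with an FDR of 0.14 or more. The deepest WT library was the lowest WT library in each of these 4 genes and still above every mutant mean with hda6.

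AT5G28237, a pyridoxal phosphate enzyme, was the member called lower in all 3 tables with the largest smallest change. It averaged 0.0896 RPKM in hda6, 0.0792 RPKM in ldl1/2 and 0.0603 RPKM in hda6/ldl1/2, against 1.19, 1.03 and 0.143 RPKM in WT. The log2 fold changes in the authors' deposited tables were -3.08, -3.35 and -3.58. The deepest WT library stood far below the other 2 WT libraries and near the mutant means, so the size of this fall rests on 2 of 3 WT libraries. AT4G07820, a secreted protein of the cysteine-rich CAP family, averaged 1.79 RPKM in hda6, 1.66 RPKM in ldl1/2 and 1.20 RPKM in hda6/ldl1/2, against 5.40, 4.58 and 3.68 RPKM in WT. Its log2 fold changes in the authors' deposited tables were -1.29, -1.49 and -1.79, and here all WT libraries were above the mutant means.

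Other members that fell in hda6/ldl1/2 had few reads there, and their folds are wide. AT5G37950, a UDP-glycosyltransferase gene near the methyltransferase run of chromosome 5, had no reads in hda6 and averaged 0.214 RPKM in ldl1/2 and 0.0137 RPKM in hda6/ldl1/2, against 0.451, 0.457 and 0.167 RPKM in WT. Its hda6/ldl1/2 mean is about 1.11 read pairs, and the ratio of WT to hda6/ldl1/2 lay between 5.20 and 1145 by the exact Poisson 95% interval. In hda6 AT5G37950 was at least 9.83-fold lower, with an FDR of 0.116 in the authors' deposited table. AT1G36640, uncharacterized, averaged 0.0434 RPKM in hda6/ldl1/2, against 0.636, 1.01 and 0.564 RPKM in WT, with a ratio of WT to hda6/ldl1/2 between 3.39 and 746 by the same interval. AT2G04480, also uncharacterized, averaged 0.026 RPKM in hda6/ldl1/2, against 0.611, 0.421 and 0.103 RPKM in WT, with a ratio between 2.98 and 656. In AT2G04480 the deepest WT library stood well below the other 2 WT libraries.

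The WT libraries bear on the falls as a group. Among members with at least 200 reads that fell in hda6/ldl1/2 and whose WT libraries could be read, the deepest WT library was the lowest in 20 of 23, by a median of 0.31 (log2) below the other libraries' mean. For members that fell in hda6 this was 13 of 19. Leaving out any one WT library turned no direction and moved no fold by more than 1.5 times. This covers the 31 members that fell in hda6 and the 43 that fell in hda6/ldl1/2 with readable WT libraries. Leaving out the lowest WT library can only enlarge a fall, and by at most 1.5 times. For the lowest library this outcome was therefore fixed in advance. The part of the deepest WT library in the calls was not tested.

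In ldl1/2, the contrast that chose the members, the calls are a description. The longest run of neighbours called alike lay on chromosome 5 (chr5:15123089-15156088) and held 2 methyltransferase genes, AT5G37970 and AT5G37990, 2 zinc-binding dehydrogenase genes, AT5G37980 and AT5G38000, and the noncoding RNA AT5G38005. AT5G37990 had 128 and 114 RPKM in ldl1/2 and averaged 25.3 RPKM in hda6 and 33.7 RPKM in hda6/ldl1/2, against a WT mean of 45.6 RPKM. It fell in hda6 by 0.79 on the log2 scale in the authors' deposited table. AT5G37980 had 5.68 and 5.38 RPKM in ldl1/2, 1.17 and 2.51 RPKM in hda6/ldl1/2 and a mean of 1.06 RPKM in hda6, against 1.06, 1.26 and 1.20 RPKM in WT. AT5G38000 had 8.72 and 11 RPKM in ldl1/2, against 5.01, 5.32 and 4.94 RPKM in WT. AT5G37970 had 3.24 and 1.12 RPKM in ldl1/2, against 0.113, 0.109 and 0.249 RPKM in WT, and leaving out the higher ldl1/2 library lowers its mean by more than 1.5 times. The first 4 genes, AT5G37970 to AT5G38000, were called higher in ldl1/2 and had an FDR of 0.0847 or more in hda6/ldl1/2 in the authors' deposited tables, and AT5G38005 was called higher in all 3.

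Among members lower in ldl1/2, AT1G32928, annotated as rapidly elicited by Avr9/Cf-9, a recognition pair known from tomato defence, was at 9.33 RPKM in hda6, 3.04 RPKM in ldl1/2 and 3.08 RPKM in hda6/ldl1/2, against 9.39, 9.11 and 8.45 RPKM in WT. AT5G28630, a glycine-rich protein, was at 10.9 RPKM in hda6, 3.57 RPKM in ldl1/2 and 4.28 RPKM in hda6/ldl1/2, against 11, 12.1 and 13 RPKM in WT. In hda6/ldl1/2 AT1G32928 fell by 1.41 and AT5G28630 by 1.36 on the log2 scale in the authors' deposited table, and both had an FDR of 1 in hda6. AT1G33770, a protein kinase, was at 0.784 RPKM in hda6, 0.151 RPKM in ldl1/2 and 0.929 RPKM in hda6/ldl1/2, against 0.420, 0.467 and 0.553 RPKM in WT. It rose in hda6/ldl1/2 with libraries of 1.26 and 0.597 RPKM, and it overlaps AT1G33780 by 733 bases on the other strand, so this value is uncertain. AT2G14247, uncharacterized, was at 8.29 RPKM in hda6, 1.72 RPKM in ldl1/2 and 4.44 RPKM in hda6/ldl1/2, against 8.58, 9.97 and 2.69 RPKM in WT, with the deepest WT library far below the other 2 WT libraries and between the ldl1/2 and hda6/ldl1/2 means.

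The mitochondrial DNA insertion of chromosome 2 made up a distinct block of members. A large piece of the mitochondrial genome has been copied into the nuclear genome there, and 49 members lie between 3.24 and 3.51 Mb. In 48 of them at least 50% of the exon bases have a copy of at least 98% identity in the mitochondrial genome, so reads of mitochondrial RNA cannot be told apart from reads of these loci. All but AT2G07671 were at or under 2.33 RPKM in the larger of ldl1/2 and WT. In hda6 the median log2 fold change of these 49 members was -0.72, or -0.55 with the members that had no reads in 1 group set to their bound. In ldl1/2 the median was 0.41 and in hda6/ldl1/2 0.25. The 327 other members up to 2.33 RPKM had medians of 0.08, 0.22 and 0.23 in the same order, and the 99 loci of the mitochondrial genome itself had medians of -0.85, 0.09 and 0.31. The mitochondrial loci had few reads, with a median of 0.175 RPKM in the hda6 table, quartiles of the log2 fold change in hda6 of -2.49 and -0.01, and 1 of 99 called lower there in the authors' deposited table. Since both sets share their sequence, their medians are not independent.

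Of the 49 insertion members the authors' deposited table for hda6 has 4 that fell and 0 that rose. In ldl1/2 and hda6/ldl1/2 0 were called. Over all loci 3.58% fell and 4.05% rose in hda6, 3.2% and 3.75% in ldl1/2, and 6.4% and 8.61% in hda6/ldl1/2. For the 327 other members up to 2.33 RPKM these shares were 1.83% and 9.17%, 0.92% and 2.75%, and 4.89% and 15.6%. At an unadjusted p under 0.05 of the authors' test, whose tool is not stated, 8 of the 49 were lower and 0 higher in hda6. In ldl1/2 4 of the 49 were higher and 0 lower, and in hda6/ldl1/2 4 were higher and 1 lower. AT2G07671, an ATP synthase subunit gene, averaged 5.44 RPKM in hda6 and had 15 and 15.6 RPKM in ldl1/2 and 14 and 10.4 RPKM in hda6/ldl1/2, against 9.65, 12.2 and 14.5 RPKM in WT. AT2G07718, a cytochrome b gene, averaged 0.744 RPKM in hda6, 1.56 RPKM in ldl1/2 and 1.6 RPKM in hda6/ldl1/2, against 1.39, 1.66 and 1.91 RPKM in WT. Both fell by 1.1 on the log2 scale in the authors' deposited table. AT2G07777, also of ATP synthase, averaged 0.221 RPKM in hda6, against 0.725 RPKM in WT, and AT2G07719, a putative membrane lipoprotein, 0.257 RPKM in hda6, against 0.811 RPKM in WT. These 2 fell by 1.65 and 1.6 on the log2 scale in the authors' deposited table. In both AT2G07671 and AT2G07718 the deepest WT library was the highest of the 3. Without the insertion, the 160 other members of chromosome 2 had a median log2 fold change of -0.01 in hda6.

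**Figure D4:**
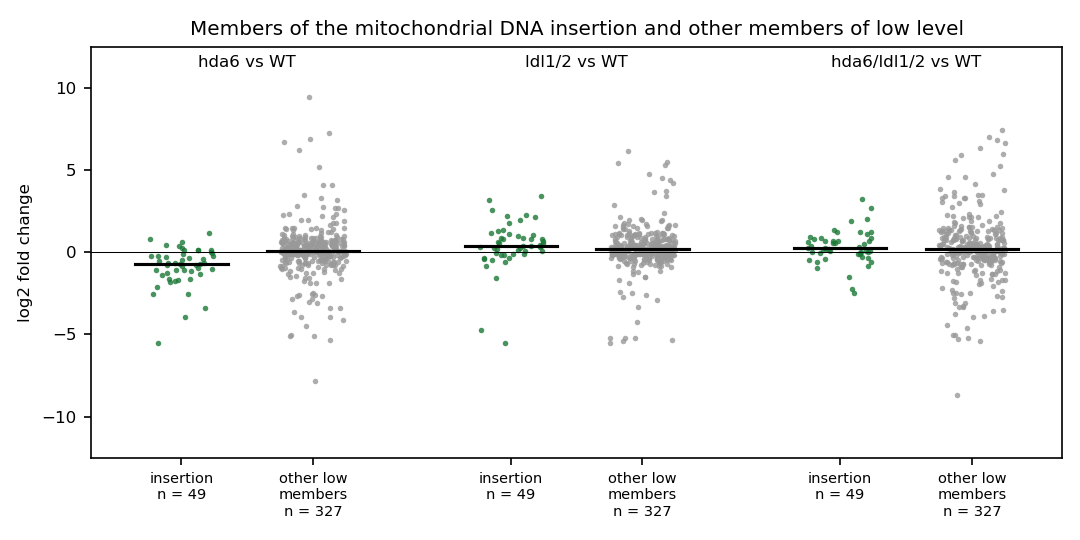
Deposited log2 fold change (vertical axis) of the 49 members in the mitochondrial DNA insertion of chromosome 2 and of the 327 other members up to 2.33 RPKM, in each comparison with WT; points are loci and black lines are medians. In hda6 the insertion members have a median of -0.72 and the other members up to 2.33 RPKM 0.08, while in hda6/ldl1/2 both medians lie just above 0.

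Among classes of protein genes, F-box genes, which choose proteins for breakdown, had 2 higher and 0 lower of 21 in hda6 and 6 higher and 1 lower in hda6/ldl1/2, beside 26 higher of 171 arm loci in hda6 and 34 in hda6/ldl1/2. AT2G04230, an F-box gene with leucine-rich repeats, had 10.7 and 9.81 RPKM in hda6 and 10.2 and 11.4 RPKM in hda6/ldl1/2, against a WT mean of 8.29 RPKM, and rose by 0.37 and 0.52 on the log2 scale in the authors' deposited tables. AT5G27920 fell in hda6/ldl1/2, to a mean of 2.86 RPKM against 6.59, 6.03 and 4.86 RPKM in WT. The other strong F-box members, AT2G16365, AT4G03635, AT4G05010 and AT5G35995, were called in no table.

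Genes related to beta-galactosidase were 5 in number, and of these 1 rose in hda6 and 3 rose in hda6/ldl1/2, beside 4.05% and 8.61% of all loci. The arms held 1 such locus, which rose in both tables. AT5G35760 moved most, with 3.62 and 4.81 RPKM in hda6, 4.92 and 4.92 RPKM in hda6/ldl1/2 and 0.888 and 0.726 RPKM in ldl1/2, against 0.642 RPKM in WT. It rose by 2.77 and 3.07 on the log2 scale in the authors' deposited tables. AT3G43580 and AT5G26622 rose in hda6/ldl1/2 by 0.92 and 0.38 on the log2 scale in the authors' deposited table. AT2G04378, at 30.8, 30.1 and 30.5 RPKM in hda6, ldl1/2 and hda6/ldl1/2, against 31.6 RPKM in WT, and AT3G27930, at 7.32, 6.27 and 7.15 RPKM against 7.16 RPKM in WT, were called in no table.

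Of 39 kinase genes 2 rose and 2 fell in hda6 and 4 rose and 7 fell in hda6/ldl1/2, or 10.3% and 17.9%. On the arms 13 of 468 kinase genes rose and 18 fell in hda6, and 21 rose and 42 fell in hda6/ldl1/2, or 4.49% and 8.97%. AT1G35710, a receptor-like kinase with leucine-rich repeats, averaged 4.18 RPKM in hda6 and 7.90 RPKM in hda6/ldl1/2 and had 18.6 and 28 RPKM in ldl1/2, against 14.4 RPKM in WT. It fell by 1.73 in hda6 and 0.74 in hda6/ldl1/2 on the log2 scale in the authors' deposited tables. AT4G09760 averaged 33.0 RPKM in hda6, 14.6 RPKM in ldl1/2 and 28.6 RPKM in hda6/ldl1/2, against 29.5 RPKM in WT. Of 7 cysteine-rich or glycine-rich genes none rose, 2 fell in hda6 and 3 fell in hda6/ldl1/2. On the arms, of 58 such genes 4 rose and 4 fell in hda6, and 11 rose and 10 fell in hda6/ldl1/2. AT2G05510, glycine-rich, averaged 11.6 RPKM in hda6 and 2.26 RPKM in hda6/ldl1/2 and had 40.0 and 57.0 RPKM in ldl1/2, against 34.5 RPKM in WT. It fell by 1.52 in hda6 and 3.80 in hda6/ldl1/2 on the log2 scale in the authors' deposited tables. AT2G05540, a neighbour of the same family, averaged 118 RPKM in hda6, 50 RPKM in ldl1/2 and 151 RPKM in hda6/ldl1/2, against 127 RPKM in WT. These 2 glycine-rich genes were lowest in different mutants.

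None of the 11 members with a ribosomal description and none of the 3 helicases was called in the authors' deposited tables. At an unadjusted p under 0.05 of the authors' test 1 ribosomal member was lower in hda6 and 1 helicase in hda6/ldl1/2. AT5G27820, a ribosomal protein gene, was at 12.8 RPKM in hda6, 13.2 RPKM in ldl1/2 and 15.3 RPKM in hda6/ldl1/2, against 12.8, 14.8 and 12.6 RPKM in WT. Of 8 ubiquitin genes 1 fell in hda6/ldl1/2, AT5G32440, to 29.9 RPKM against 44.7 RPKM in WT, beside 2 that fell of 103 on the arms. Of 17 zinc finger genes 1 rose and 1 fell in hda6 and 2 rose in hda6/ldl1/2, beside 5 and 6 of 212 on the arms in hda6 and 5 that rose and 18 that fell there in hda6/ldl1/2. Of the 248 members of unknown function 16 rose and 10 fell in hda6, or 6.45% and 4.03%. Among 1891 such arm loci the shares were 2.49% and 3.91%. In hda6/ldl1/2 35 of the 248 rose and 13 fell, or 14.1% and 5.24%, beside 8.25% and 5.50% of these arm loci. Noncoding loci were few: of 26 long noncoding RNAs 5 rose and 1 fell in hda6 and 3 rose in hda6/ldl1/2, and of 19 other noncoding RNAs 4 rose and 1 fell in hda6 and 6 rose in hda6/ldl1/2. On the arms 5 of 201 long noncoding RNAs and 4 of 67 other noncoding RNAs rose in hda6, and 15 and 10 rose in hda6/ldl1/2, or 7.46% and 14.9%. In the same order 3 and 2 of these arm loci fell in hda6, and 6 and 1 in hda6/ldl1/2, where 0 members of either kind fell. With no test of these differences, the counts are a description.

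The strongest member was a gene of green tissue, which the labelled seedlings hold. AT5G38410, a small subunit gene of Rubisco, the enzyme that fixes carbon dioxide, averaged 5776 RPKM in hda6, 5428 RPKM in ldl1/2 and 5628 RPKM in hda6/ldl1/2, against 6042 RPKM in WT, and was called in no table. AT2G10940, of the lipid-transfer protein kind, averaged 519 RPKM in hda6, 320 RPKM in ldl1/2 and 447 RPKM in hda6/ldl1/2, against 468 RPKM in WT. AT5G38980, of unknown function, averaged 240 RPKM in hda6, 389 RPKM in ldl1/2 and 345 RPKM in hda6/ldl1/2, against 351 RPKM in WT, and fell in hda6 by 0.49 on the log2 scale in the authors' deposited table. AT5G26280, with a TRAF-like domain and next to AT5G26270, averaged 112 RPKM in hda6, 67.6 RPKM in ldl1/2 and 62.8 RPKM in hda6/ldl1/2, against 130 RPKM in WT. It fell in hda6/ldl1/2 by 0.92 on the log2 scale in the authors' deposited table, while AT5G26270 beside it rose. The other 4 of the 8 strongest, AT5G39570, AT2G04410, AT1G42960 and AT4G05070, lay between 84.5 and 185 RPKM in every group, and of these AT4G05070, named after a wound response, fell in hda6/ldl1/2 by 0.50 in the authors' deposited table.

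Promoter windows were searched for 5 short motifs on both strands. TATAAA, the letters of a TATA box, was in 51.1% of the members' windows, 50.5% of the arm windows and 50.9% of the windows of all 33938 nuclear loci. It was in 48.1% of the members that rose in hda6, 60% of those that fell in hda6, 54.7% of those that rose in hda6/ldl1/2 and 73.1% of the 67 that fell in hda6/ldl1/2. TGGGCC, the core of the site II element of many housekeeping genes, was in 12.2% of the members, 18.8% of the arm loci, 14.1% of all windows and 4.48% of the members that fell in hda6/ldl1/2. AAACCCTA, the telo box, was in 4.46% of the members and 5.64% of the arm loci. CACGTG, the G box, was in 6.35% and 8.40%, and CATGCA, the RY core, in 9.62% and 8.49%. The windows of members and of arm loci both held a median of 6 CG pairs. A match is a description of letters, not a bound site. Among the members that led the rises, the windows of AT2G05914, AT4G04223, AT5G38005 and AT4G04260 held no TATAAA on either strand.

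Near-identical copies and overlaps make single values uncertain. At least 50% of the exon bases had such a copy in 71 members, 48 of them in the insertion, and 914 of the 959 members outside the insertion had none. Without the 71, 50 members rose and 45 fell in hda6 and 114 rose and 67 fell in hda6/ldl1/2. The annotated span of 268 members, 26.6%, overlapped another locus of the tables, and in 240 of these the other locus was on the opposite strand. This held for 32.7% of the members that rose and 36% of those that fell in hda6, and for 23.9% and 22.4% in hda6/ldl1/2. The sources used here do not say whether the counting used strand.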

How the data were processed

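RNA of 4 groups was sequenced, and the members and the gene lists were chosen with earlier results of these data known. Per the submitters' processing notes Bowtie and the TAIR10 build were used; the sources used here do not say how reads were counted or which test was run. For each locus the deposited tables give the authors' larger group mean in RPKM, their log2 fold change, the fold as a signed score (minus the inverse ratio for a decrease), a p-value and an FDR. The RPKM unit was read from the values. Recomputed by the Benjamini-Hochberg method over all 34262 loci, the deposited FDR differed by at most 9.13e-05; 9357 loci have no fold change. No column of another sample was present (0).

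Group means were rebuilt from the 3 tables with Python 3.11.15, pandas 2.3.3, numpy 2.4.6 and scipy 1.17.1. A WT mean repeated in 2 tables was read directly. At higher WT means the ratio of RPKM means differed from the deposited log2 fold change by a constant. It was -0.06 in hda6, 0.03 in ldl1/2 and -0.13 in hda6/ldl1/2, and that constant served for the other means. At up to 10 WT read pairs, WT means rebuilt so lay a median of 0.06 to 0.07 (log2) above those read directly. There 90% differed by at most 0.21 to 0.23, so weak rebuilt means are less exact. The Poisson intervals took read pairs rounded to a whole number. Library depths came from the means of 1 read pair, and library reads are the whole numbers that give a mean exactly. They were found for 98.0% of the members tried in hda6, 98.2% in ldl1/2, 97.0% in hda6/ldl1/2 and 97.5% in WT, and for 0% to 1.95% after the values were shifted by a thousandth. On simulated data these steps recovered what was drawn. The simulated fold changes were made with such a constant, so the simulation could not test whether a constant holds at few reads. Library values cover members whose group had the larger mean and, in WT, up to 1000 reads a library.

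"Called", "rose" and "fell" mean a deposited FDR under 0.05; FDR values listed as 0 are below the digits given. No test across libraries was run here. A group under 0.5 read pairs counts as having no reads, and a fold is then a bound at 3 read pairs. Members were matched to the RefSeq annotation of TAIR10.1 by locus name and position, and all 1008 matched. Named members are the largest calls in each direction per table, those called the same way in all 3, the strongest, those nearest the level, the strongest of each class, those in which hda6/ldl1/2 departs most from the nearest other mutant, and runs of 3 or more neighbours called alike. Copies were found with BLASTN 2.17.0 (at least 150 bases and 98% identity), and sequences were aligned with Biopython 1.88. Figures were drawn with matplotlib 3.10.9. Alternatives are given in the closing section.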

Additional observations from a re-analysis of the deposited data

How the results depend on the processing

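Counts of members called higher or lower stayed within 1.5 times with an FDR limit of 0.01, an adjustment over loci with a fold change, level cuts of 0.05 and 0.5 RPKM, and without AT2G07 loci. The same held without members that have near-identical copies, an alternative chosen after the data were seen. With windows narrowed by 1 Mb on each side, 28 of 402 members were higher and 15 lower in hda6, 16 and 10 in ldl1/2, and 57 and 22 in hda6/ldl1/2. With named loci added, 114 were higher and 122 lower in hda6, 94 and 71 in ldl1/2, and 227 and 176 in hda6/ldl1/2. Both settings change the number of loci by construction. Counts by the size rule kept within 1.5 times after median centring. With a pseudocount of 0.1 RPKM they were 39 higher in hda6 and 51 higher in ldl1/2. With a pseudocount of 1 RPKM they were 16 higher and 18 lower in hda6, 15 and 6 in ldl1/2, and 27 and 21 in hda6/ldl1/2. At a cut of 0.5 RPKM they were 26 and 40 in hda6, 34 and 15 in ldl1/2, and 43 and 39 in hda6/ldl1/2. A pseudocount and the cut both shrink the folds of members with few reads by construction.

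No value of a named member turned its direction under any alternative run. A pseudocount added to both means keeps their order, so for that setting this outcome was fixed in advance. Of 119 named fold changes 40 moved with a pseudocount of 0.1 RPKM and 67 with 1 RPKM, and 0 with median centring. Single libraries were left out in turn for called members with readable libraries, without a test. For members that rose these were the mutant libraries, and for members that fell the WT libraries. Rises were not checked without single WT libraries, nor falls without single mutant libraries. No direction turned in these runs. The fold moved by more than 1.5 times for AT1G34315, AT3G28220, AT3G29580 and AT5G25970 in hda6 and for AT1G35242 and AT5G37970 in ldl1/2. In hda6/ldl1/2 it did so for AT1G33770, AT2G07140, AT2G12205, AT3G27950, AT3G28330, AT3G30460 and AT5G36920. For members that fell, leaving out the lowest WT library can only enlarge the fall, by at most 1.5 times, so no change could be seen there. Counts of calls could not be refitted without a library, since the tables hold only group means and p-values. No paired analysis was possible because the libraries behind the tables carry no replicate numbers. Depth limits members near the level, where 0.1 RPKM on 1 kb stands for 4.14 to 7.53 read pairs.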
